A study of Mus musculus with 16 samples.

Results

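Most proteins of the mitochondrion are encoded in the nucleus, translated in the cytoplasm and imported. Their mRNAs were examined here as targets of Dazl, in libraries of RNA crosslinked to this germ cell RNA-binding protein in GC-1 spg cells. The genes were chosen by symbol and by having a Dazl region, not by the level or change of that region: protein-coding RefSeq genes of GRCm38.p6 (mm10) starting Nduf, Cox followed by a digit, Atp5, Uqcr, Mrpl, Mrps, Timm, Tomm or Slirp. In all, 206 genes had such a symbol, and 25 of them (12.1%) had a Dazl region between the start and the end of the gene. Among all 21900 protein-coding genes, 3399 (15.5%) had one. The regions of Cox7a2 and Mrps6 also lay in a second protein-coding gene, so 23 of the 25 entered the table of 3203 genes.

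The libraries were made by KIN-CLIP, an iCLIP method with timed crosslinking by an ultraviolet laser, from GC-1 spg cells, a mouse line derived from spermatogonia, in which Dazl was induced with doxycycline. Crosslinking lasted 30, 180 or 680 s, the laser was set to 1 or 2.6 mW, and Dazl was at 1x or 4.2x. Each of these 12 conditions had 1 library and no replicate, and 4 further samples of 0 s were not analysed here, which leaves the values without a background from uncrosslinked cells. All libraries share the cell line, its inducible Dazl and the doxycycline treatment, so no group is without Dazl.

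Coverage below is the sum of the deposited value over the positions of a region or a gene; it has no strand and is not divided by the amount of the RNA. More Dazl bound per RNA and more copies of an RNA therefore cannot be told apart. Total coverage ran from 11271 at 180 s, 1 mW and 1x Dazl to 252932 at 680 s, 2.6 mW and 4.2x Dazl. All 8338 regions were listed in every library, and 1 was the lowest value. In the weakest libraries, 30 s and 180 s at 1 mW and 1x Dazl, 38 (79.2%) and 40 (83.3%) of the 48 regions of the mitochondrial genes stood at 1, against 74.0% and 80.5% of all regions. Of 13 germ cell markers only Sall4 had a region, with a mean coverage of 1.67. Sertoli markers had 2 of 5 (Wt1 12.8, Dhh 12.3), peritubular and fibroblast markers 2 of 4 (Acta2 15.7, Col1a1 715), endothelial markers 1 of 3 (Kdr 4.33), and Leydig (4) and macrophage (3) markers none; a gene without a region may still be expressed.

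The complexes of oxidative phosphorylation include NADH dehydrogenase (complex I), succinate dehydrogenase (II), the cytochrome bc1 complex (III), cytochrome c oxidase (IV) and ATP synthase (V). In complexes I, III, IV and V, nuclear-encoded subunits join others made inside the organelle. Those internal subunits are translated by mitochondrial ribosomes, whose proteins (Mrpl in the large and Mrps in the small subunit) also come from nuclear genes. Precursor proteins enter through the outer membrane translocase (Tomm) and the inner membrane translocases and their small chaperones (Timm). Dazl is known to bind GUU-containing sites, mostly in 3′ untranslated regions, and to act on translation and stability of germ cell mRNAs.

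By role, regions were found in 5 of 49 complex I genes, 6 of 27 complex IV genes, 2 of 17 complex V genes, 4 of 49 Mrpl genes, 4 of 29 Mrps genes, 2 of 16 Timm genes and 2 of 10 Tomm genes. None was found in the 8 Uqcr genes of complex III or in Slirp, which encodes an RNA-binding protein of mitochondria. The 23 genes in the table had 48 regions, of which 43 were 17 nt long. Of these genes, 9 had a single region and 9 had 2, and the median was 2 regions per gene, as for all genes.

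The sequence of a region could be read for 2 of these genes, Ndufa1 and Timm8a1, whose regions lie inside RefSeq promoter windows (GRCm38.p6). Among the regions of the set with a known strand, these are the only ones within 300 nt of a gene start. Each is printed 5′ to 3′ on the strand of its gene (minus for both), with the 17-nt region in capitals.
Ndufa1: gttggcgTGCGAGTAACGGTGCGGagatgt
Timm8a1: gggaggtTGTAGTTCCGGTTCCGTcaccca
The Ndufa1 window is chrX:37191087-37191116 and its region, chrX:37191093-37191109, lies 129 nt inside the gene start; the letters were read from the promoter window of Rnf113a1, a neighbour on the other strand, and lie before the start of that gene, while the coverage itself has no strand. The Timm8a1 window is chrX:134541649-134541678 and its region, chrX:134541655-134541671, reaches 1 nt beyond the annotated start. GTT occurs 2 times in the Timm8a1 region. It does not occur on the gene strand of the Ndufa1 region, which holds AAC, its reverse complement, 1 time. Over all promoter windows, 16.5% of 17-nt stretches held GTT on the strand of the gene and 31.0% on either strand. Of the 113 regions of 17 nt inside a promoter window, 65 (57.5%) held it on either strand.

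Coverage of the 23 genes made up between 0.559% and 0.637% of gene coverage in the 12 libraries, where they are 0.718% of the genes. Their median mean coverage was 20.3 against 16.3 for all genes. Divided by the length of the regions, it was 0.701 per nt against 0.632, and 14 of 23 (60.9%) lay above the median gene. Atp5b had the highest coverage per region nt, 1.23 (rank 117 of 3203), followed by Cox6a1 and Cox4i1, both at 1.12, Ndufa4 at 1.08 and Tomm70a at 1.05. All values by gene and library are shown in the heat map of coverage.

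**Figure D1:**
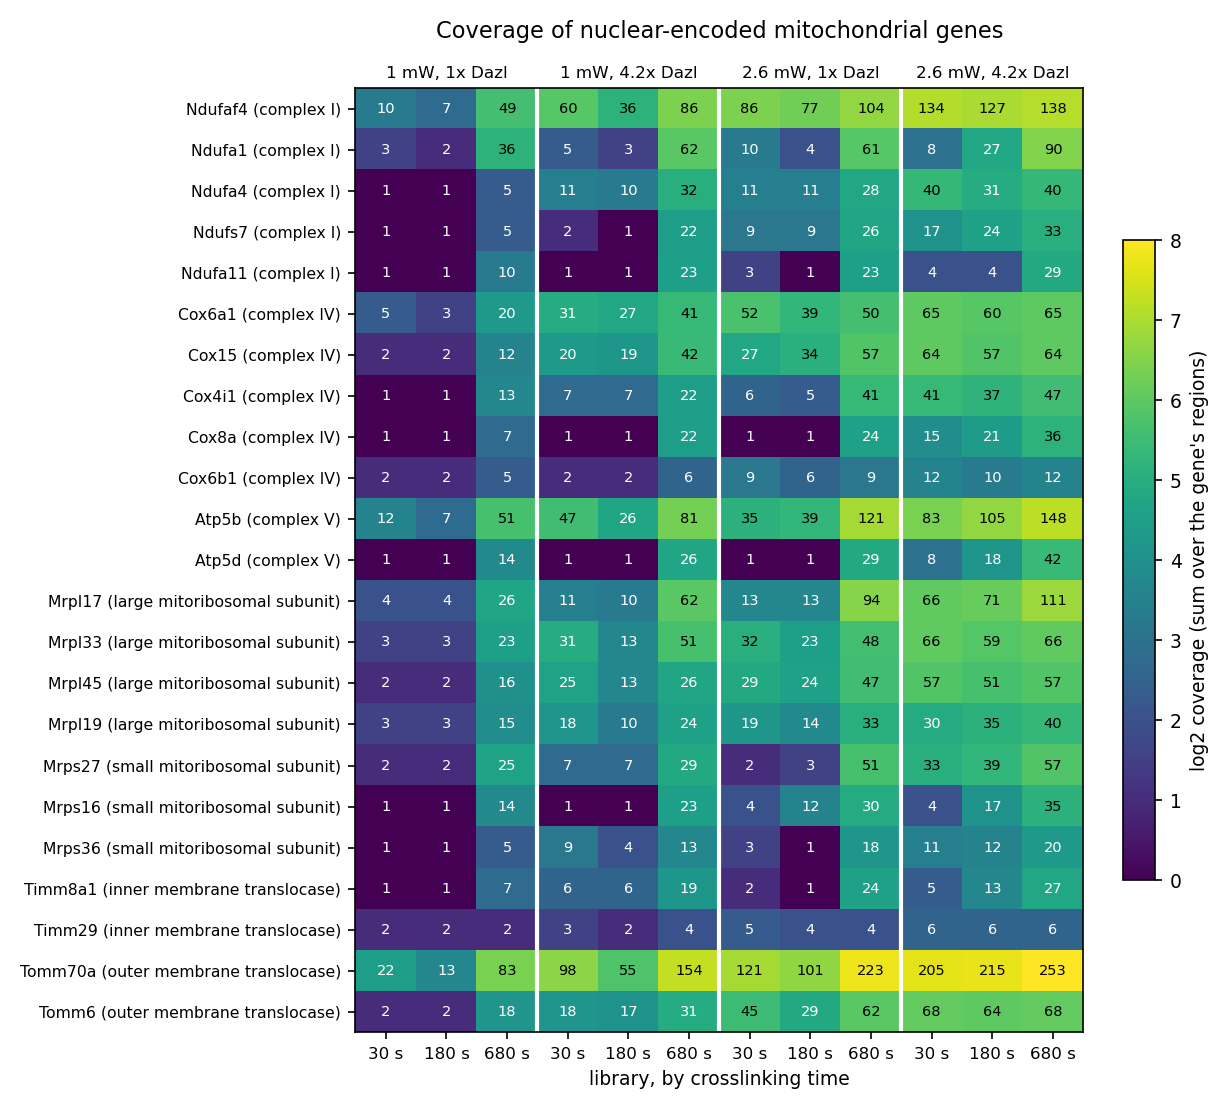
Coverage of the 23 nuclear-encoded mitochondrial genes (rows, grouped by symbol) in the 12 libraries (columns, by laser power, Dazl level and crosslinking time); each cell prints the coverage, and the colour is its log2. Tomm70a reached the highest value, 253 at 680 s, 2.6 mW and 4.2x Dazl, while Cox6b1 and Timm29 stayed at or below 12 in every library.

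Among the import genes, Tomm70a, which encodes a receptor of the outer membrane translocase, had the highest total coverage (mean 128.6) over 6 regions between chr16:57153093-57154450, in the last part of its gene. Tomm70a coverage at 30, 180 and 680 s was 22, 13 and 83 at 1 mW and 1x Dazl, 98, 55 and 154 at 1 mW and 4.2x, 121, 101 and 223 at 2.6 mW and 1x, and 205, 215 and 253 at 2.6 mW and 4.2x. It held between 17.1% and 26.5% of the coverage of the set, and without it the set made up 0.434% to 0.518% of gene coverage. Tomm6, a small subunit of the same translocase, had 2, 2 and 18 at 1 mW and 1x, 18, 17 and 31 at 1 mW and 4.2x, 45, 29 and 62 at 2.6 mW and 1x, and 68, 64 and 68 at 2.6 mW and 4.2x. In the strongest series the 30 s and 680 s values of Tomm6 were thus equal, while at 1 mW and 1x nearly all its coverage came after 180 s. Timm8a1, a small chaperone of the intermembrane space, had 1, 1 and 7, then 6, 6 and 19 (1 mW, 4.2x), 2, 1 and 24 (2.6 mW, 1x) and 5, 13 and 27 (2.6 mW, 4.2x). Its 680 s value was above both earlier ones in every series. Timm29, a component of the inner membrane carrier translocase, had the lowest mean coverage of the set, 3.83, and no value above 6.

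Complex I was led by Ndufaf4, an assembly factor, with 5 regions within chr4:24902021-24902221. Its values at 30, 180 and 680 s were 10, 7 and 49 (1 mW, 1x), 60, 36 and 86 (1 mW, 4.2x), 86, 77 and 104 (2.6 mW, 1x) and 134, 127 and 138 (2.6 mW, 4.2x). Ndufa1, a membrane arm subunit, had 3, 2 and 36, then 5, 3 and 62, then 10, 4 and 61, and in the strongest series 8, 27 and 90. Its 680 s values ran from 36 to 90 and its 30 s values from 3 to 10. Ndufa4, named for complex I and since described as a cytochrome c oxidase subunit, had 1, 1 and 5 (1 mW, 1x), 11, 10 and 32 (1 mW, 4.2x), 11, 11 and 28 (2.6 mW, 1x) and 40, 31 and 40 (2.6 mW, 4.2x). Ndufs7, an iron-sulfur subunit of the electron path, had 1, 1 and 5, then 2, 1 and 22, then 9, 9 and 26, and 17, 24 and 33. Ndufa11, a membrane arm subunit, had 1, 1 and 10, then 1, 1 and 23, then 3, 1 and 23, and 4, 4 and 29. Ndufa11 thus stood at or near the lowest value at both early times in every series.

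In complex IV the highest member in the table was Cox6a1, a structural subunit, with 2 regions within 300 nt of its gene end. Cox6a1 had 5, 3 and 20 (1 mW, 1x), 31, 27 and 41 (1 mW, 4.2x), 52, 39 and 50 (2.6 mW, 1x) and 65, 60 and 65 (2.6 mW, 4.2x). At 2.6 mW its 680 s values were therefore no higher than its 30 s values. Cox15, needed to make the heme A of the enzyme, had 2, 2 and 12, then 20, 19 and 42, then 27, 34 and 57, and 64, 57 and 64. Cox4i1, a core regulatory subunit, had 1, 1 and 13, then 7, 7 and 22, then 6, 5 and 41, and 41, 37 and 47. Cox6b1, which faces the intermembrane space, stayed between 2 and 12 in all libraries, with 2, 2 and 5, then 2, 2 and 6, then 9, 6 and 9, and 12, 10 and 12. Cox8a, a small membrane subunit, had a mean coverage of 10.9. The 5 regions of Cox7a2, left out of the table, lie 1 to 2215 nt from the end of Tmem30a, and their coverage ran from 8 to 156.

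ATP synthase was represented by both a catalytic and a stalk subunit. Atp5b, the catalytic beta subunit, had 12, 7 and 51 (1 mW, 1x), 47, 26 and 81 (1 mW, 4.2x), 35, 39 and 121 (2.6 mW, 1x) and 83, 105 and 148 (2.6 mW, 4.2x). Atp5d, the delta subunit of the central stalk, had 1, 1 and 14, then 1, 1 and 26, then 1, 1 and 29, and 8, 18 and 42. Atp5d stood at 1 at both early times in 3 of the 4 series.

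Among genes of the mitochondrial ribosome, Mrpl17 had the highest coverage, with 4, 4 and 26 (1 mW, 1x), 11, 10 and 62 (1 mW, 4.2x), 13, 13 and 94 (2.6 mW, 1x) and 66, 71 and 111 (2.6 mW, 4.2x). Mrpl33 had 3, 3 and 23, then 31, 13 and 51, then 32, 23 and 48, and 66, 59 and 66; both its regions also lie in the noncoding gene Gm38424. Mrpl45, whose product lies at the membrane side of the ribosome, had 2, 2 and 16, then 25, 13 and 26, then 29, 24 and 47, and 57, 51 and 57. Mrpl33 and Mrpl45 were thus equal at 30 s and 680 s in the strongest series, and Mrpl17 was not. Mrpl19 had 3, 3 and 15, then 18, 10 and 24, then 19, 14 and 33, and 30, 35 and 40. Of the small subunit, Mrps27 had 2, 2 and 25, then 7, 7 and 29, then 2, 3 and 51, and 33, 39 and 57. Mrps16 had 1, 1 and 14, then 1, 1 and 23, then 4, 12 and 30, and 4, 17 and 35, so that its value at 30 s was never above 4. Mrps36, named for the ribosome and since described as part of the 2-oxoglutarate dehydrogenase complex, had 1, 1 and 5, then 9, 4 and 13, then 3, 1 and 18, and 11, 12 and 20. The 4 regions of Mrps6 lie 90 to 309 nt from the end of Slc5a3, inside both genes, and their coverage ran from 5 to 89.

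The comparison of Dazl levels asked how coverage changed with the amount of protein. Coverage of the mitochondrial genes was higher at 4.2x than at 1x Dazl in 19 of 23 (82.6%) and lower in none, beside 2640 of all 3203 genes (82.4%) that were higher, a share near that of the set. All 4 Mrpl genes, both Tomm genes and both Atp5 genes rose, as did 4 of 5 Nduf, 4 of 5 Cox, 2 of 3 Mrps and 1 of 2 Timm genes. The median change was 1.10 on the log2 scale (2.15-fold), where the median of all genes was 0.88. Calls come from limma, with an adjusted p under 0.05 over all genes and changes in log2(coverage + 3). The test takes its spread from the departure of single libraries from an additive model and treats them as independent. Values at 30 and 680 s were however often tied at 2.6 mW and 4.2x Dazl, as described for the time course.

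Ratios of 4.2x over 1x Dazl were higher at 1 mW than at 2.6 mW at each time. At 1 mW the summed coverage of the 23 genes rose 5.00-fold at 30 s (83 to 415), 4.32-fold at 180 s (63 to 272) and 1.95-fold at 680 s (461 to 901). At 2.6 mW the ratios were 1.98-fold at 30 s (525 to 1042), 2.44-fold at 180 s (452 to 1103) and 1.23-fold at 680 s (1207 to 1484). Ratios over all genes were 4.99, 4.28, 1.93, 1.89, 2.16 and 1.24 in the same order. Within 2.6 mW alone, no gene of the set and no gene at all passed the limma test, although 14 of the 23 and 1817 of all genes had an unadjusted p under 0.05. The median change of the set was 0.74 at 2.6 mW and 1.13 at 1 mW; the difference between these was not tested.

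Ndufa4 had the largest gain with Dazl relative to genes of equal coverage, which here means the 100 genes outside the set with the closest mean coverage. Its log2 change was 1.50 ± 0.28 (SE, 12 libraries; limma adjusted p = 1.45e-05), higher in 6 of 6 matched pairs, where the 100 genes had a median of 0.90. Mrps36 followed with 1.11 ± 0.23 against 0.57, and Cox4i1 with 1.35 ± 0.28 against 0.90. At the other end, Mrps16 changed by 0.21 ± 0.26 (adjusted p = 0.434), where genes of equal coverage had 0.82, and was higher in 3 of 6 pairs and equal in the rest. Ndufa1 rose by 0.64 ± 0.29 (adjusted p = 0.0357), with 5 pairs higher and 1 lower, against 0.97, and Cox6b1 changed by 0.22 ± 0.20 (adjusted p = 0.288) against 0.47. The other genes that did not pass were Ndufa11, with 0.39 ± 0.19 (adjusted p = 0.0533), and Timm29, with 0.27 ± 0.14 (adjusted p = 0.0581).

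Over the whole set, the change minus that of genes of equal coverage had a median of 0.03 (SD 0.30, n = 23 genes), with 12 genes above 0. After each library was scaled to its median gene, none of the 3203 genes departed from that median with Dazl (0.00%) by limma, while 578 of all genes and 5 of the set had an unadjusted p under 0.05.

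**Figure D2:**
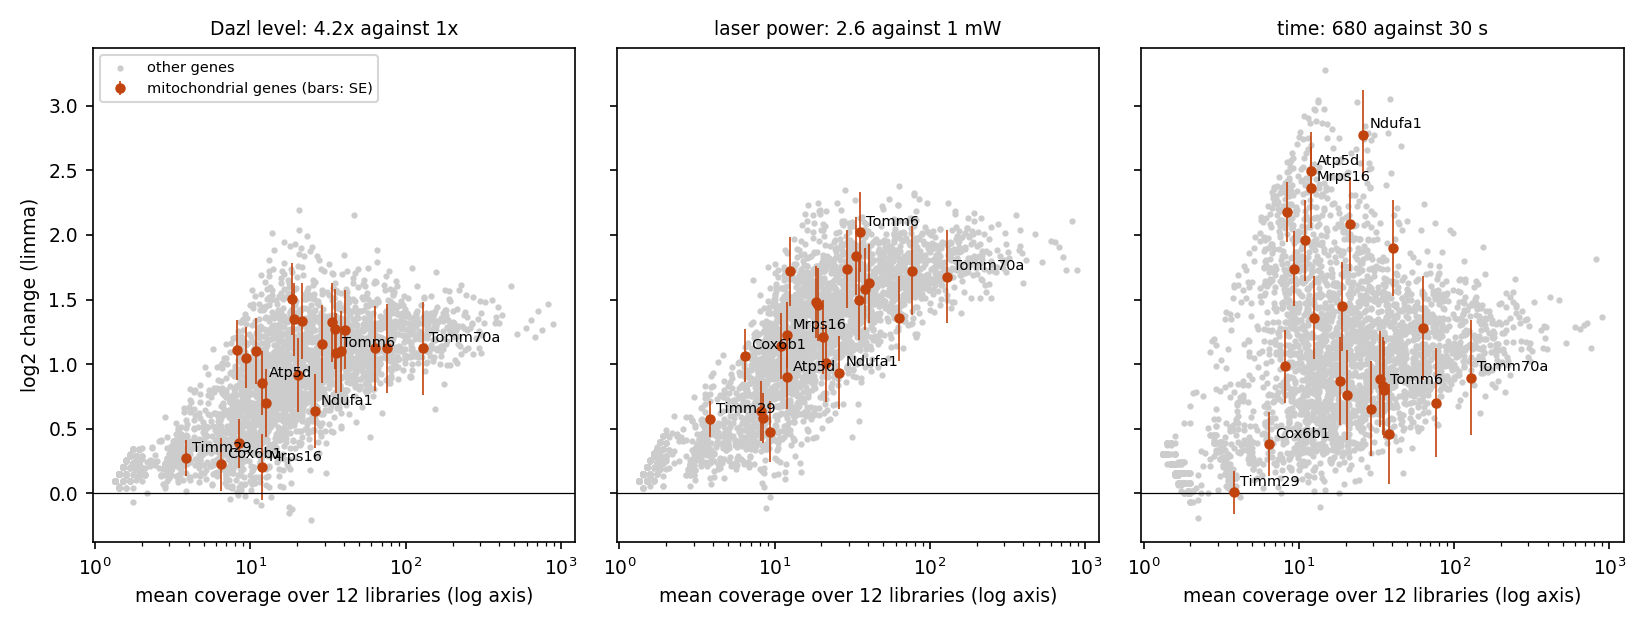
Log2 change of coverage from limma (vertical axes) against mean coverage over 12 libraries (horizontal log axes) for Dazl level, laser power and time, with the 23 mitochondrial genes as red points with bars of 1 SE and the other genes of the table as grey points. Red points lie within the grey cloud for Dazl and laser, and for time Ndufa1, Atp5d and Mrps16 lie in its upper part with log2 changes of 2.78, 2.49 and 2.37.

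The comparison of laser powers asked how coverage changed with light. Of the 23 genes, 22 (95.7%) were higher at 2.6 mW than at 1 mW and none was lower, beside 2993 of all genes (93.4%) that were higher. The set had a median log2 change of 1.36 (2.56-fold) and all genes 1.22. Every gene of complexes I, IV and V, of both ribosomal subunits and of the outer membrane translocase passed. The exception was Timm8a1, which changed by 0.48 ± 0.24 (SE; limma adjusted p = 0.0504), with 4 of 6 matched pairs higher and 1 lower. Leaving out single libraries moved the count of the set only between 21 and 23, and that of all genes between 2794 and 3011.

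At 1x Dazl the summed coverage rose 6.33-fold at 30 s (83 to 525), 7.18-fold at 180 s and 2.62-fold at 680 s. At 4.2x Dazl it rose 2.51-fold, 4.06-fold and 1.65-fold. Over all genes the ratios were 6.16, 7.62 and 2.57 at 1x and 2.33, 3.84 and 1.65 at 4.2x. Both sets of ratios were thus smallest at 680 s, as for Dazl level.

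Ndufs7 had the largest response to laser power relative to genes of equal coverage, at 1.72 ± 0.26 against 1.08 (adjusted p = 7.01e-08, 6 of 6 pairs higher). Tomm6 rose by 2.02 ± 0.31 against 1.50 and Cox6b1 by 1.07 ± 0.20 against 0.68. The smallest relative responses were those of Ndufa1, at 0.94 ± 0.29 against 1.45, Timm8a1, against 0.99, and Mrps27, at 1.01 ± 0.30 against 1.35. The set as a whole had a median difference of 0.0034 (SD 0.30, n = 23 genes), with 13 genes above 0. On scaled values none of the 3203 genes departed from the median gene with laser power (0.00%) by limma, where 934 of all genes and 4 of the set had an unadjusted p under 0.05. Without the 680 s, 2.6 mW, 4.2x library, Tomm6 alone of the set did, with 118 of all genes departing upward and 337 downward.

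The time course asked how coverage grew during crosslinking. Here the mitochondrial genes differed most from one another, and so did genes of equal coverage. From 30 to 680 s, 17 of 23 (73.9%) rose and none fell, beside 2339 of all genes (73.0%) that rose. Log2 changes ran from 0.01 for Timm29 to 2.78 for Ndufa1, with a median of 0.98 (1.98-fold) against 1.03 for all genes. Genes that did not pass were Ndufaf4, Cox6a1, Cox6b1, Timm29, Mrpl45 and Tomm70a, so the gene with most coverage was among them. Within 2.6 mW alone 8 of the set and 992 of all genes passed, and within 4.2x Dazl alone 8 and 829. Without single libraries 12 to 20 of the set and 1678 to 2627 of all genes passed. The count of the set was 12 without 30 s at 1 mW and 1x (1735 of all genes). It was also 12 without 680 s at 1 mW and 4.2x (1734) or without 680 s at 2.6 mW and 1x (1736).

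Between 30 and 180 s no gene of the table changed by limma (0.00%), with 5 of all genes and 1 of the set at an unadjusted p under 0.05. Summed coverage of the set at 180 s was 0.759, 0.655, 0.861 and 1.06 times that at 30 s in the 4 series from weakest to strongest. Over all genes these ratios were 0.754, 0.647, 0.9325 and 1.07. From 30 to 680 s the ratios were 5.55, 2.17, 2.30 and 1.42, and over all genes 5.32, 2.06, 2.22 and 1.45 (1 mW at 1x, 1 mW at 4.2x, 2.6 mW at 1x, 2.6 mW at 4.2x).

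Ndufa1, Atp5d, Mrps16 and Ndufa11 rose more than the median gene on scaled values. These are 4 of 23 (17.4%), where 9.52% of all genes departed upward. None of the set departed downward, where 1.62% of all genes did. Those shares of all genes were not matched for coverage. Mean coverage was 25.9 for Ndufa1, 11.9 for Atp5d and for Mrps16, and 8.42 for Ndufa11. All regions of the gene stood at 1, the lowest value, in 6 of 12 libraries for Atp5d, 5 for Ndufa11, 4 for Mrps16 and 1 for Ndufa1. There the scaled value depends only on the scaling factor of the library. The part of these lowest values in the departures was not tested. The departures were 1.61 ± 0.31 for Ndufa1 (adjusted p = 0.00359), 1.56 ± 0.34 for Atp5d (adjusted p = 0.00719), 1.40 ± 0.28 for Mrps16 (adjusted p = 0.00486) and 1.23 ± 0.28 for Ndufa11 (adjusted p = 0.00943), and all 4 rose in each of the 4 series. Within 1x Dazl alone none of the 23 departed (32 of all genes did), while 8 of the set and 511 of all genes had an unadjusted p under 0.05 by limma. There the departures of these 4 ran from 0.70 for Ndufa11 to 1.21 for Atp5d, with adjusted p from 0.0631 to 0.335. Within 4.2x Dazl alone all 4 departed upward, by 1.93 to 2.37, with Cox8a added. Counting both directions, 6 of the 23 departed there, beside 603 of all genes. The difference between the Dazl levels was not tested. Ndufa11 did not depart when 30 s at 1 mW and 4.2x was left out, nor with a slope on log2 time. When 30 s was left out at 1 mW and 1x, or at 2.6 mW and 4.2x, 7 genes of the set departed upward, with Mrpl17, Mrps27 and Cox8a added. Over the fits without single libraries, 135 to 416 of all genes departed upward and 12 to 75 downward. Ndufaf4 and Cox6a1 departed downward when 30 s at 1 mW and 1x was left out, and Ndufaf4 and Tomm70a when 180 s at 2.6 mW and 1x was.

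Set against genes of equal coverage, Ndufa1 rose with time by 2.78 ± 0.35 against 1.13 (adjusted p = 3.27e-11), Atp5d by 2.49 ± 0.30 against 1.09 and Mrps16 by 2.37 ± 0.31 against 1.09. The smallest relative changes were those of Cox6b1, 0.38 ± 0.25 against 1.36 (adjusted p = 0.152), Cox6a1, 0.46 ± 0.39 against 1.07 (adjusted p = 0.262), and Mrps36, which rose by 0.98 ± 0.28 against 1.50. The difference had a median of -0.12 and an SD of 0.72 over the 23 genes, wider than the SD of 0.30 for Dazl and for laser. Genes of equal coverage also spread more widely with time. For those of Atp5d, the 10th to 90th percentiles were 0.40 to 2.39 for time, 0.37 to 1.27 for Dazl and 0.55 to 1.56 for laser. For those of Tomm70a they were 0.98 to 1.52, 1.05 to 1.39 and 1.61 to 1.97. The log2 change was above the 90th percentile of the genes of equal coverage in 4, Ndufa1, Atp5d, Mrpl17 and Mrps27. It was below the 10th in 6, Tomm70a, Ndufaf4, Cox6a1, Mrpl45, Cox6b1 and Timm29. Mrps16 and Ndufa11, which departed on scaled values, lay inside this range. Their changes were 2.37 and 2.18, with 90th percentiles of 2.39 and 2.37.

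The genes also differed in the coverage already present at 30 s, read without the log scale and from the same libraries. In the strongest series, 2.6 mW and 4.2x Dazl, 8 of 23 genes (34.8%) had exactly the same coverage at 30 s as at 680 s, against 25.4% of all genes. They were Cox6a1, Tomm6, Mrpl33, Cox15, Mrpl45, Ndufa4, Cox6b1 and Timm29. Of these, Tomm6, Mrpl33, Cox15 and Ndufa4 had passed as higher at 680 s in the fit over all libraries. Ndufa1, Atp5d, Mrps16, Cox8a, Timm8a1 and Ndufa11 (26.1%, all genes 30.1%) had at most 50% of their 680 s coverage at 30 s, and Ndufa1 had 8.89%. Cox8a and Timm8a1 had not departed on scaled values. Members of 1 complex lay on both sides, as with Cox6a1 and Cox8a.

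The share of the summed 680 s coverage present at 30 s rose from 18.0% at 1 mW and 1x to 70.2% at 2.6 mW and 4.2x (all genes 18.8% and 68.8%). In the other two series it was 46.1% (1 mW, 4.2x; all genes 48.7%) and 43.5% (2.6 mW, 1x; all genes 45.2%). The median gene of the set had 34.4% at 1 mW and 4.2x and 34.6% at 2.6 mW and 1x. The medians of genes of equal coverage were 47.1% and 39.2%, and 11 and 12 of the 23 genes lay above their own. In the strongest series the median gene of the set had 75.0% and genes of equal coverage 70.9%, with 13 of the 23 above. The spread over the 23 genes was 28.8 and 35.9 percentage points (SD) in the first pair and 34.1 in the last.

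**Figure D3:**
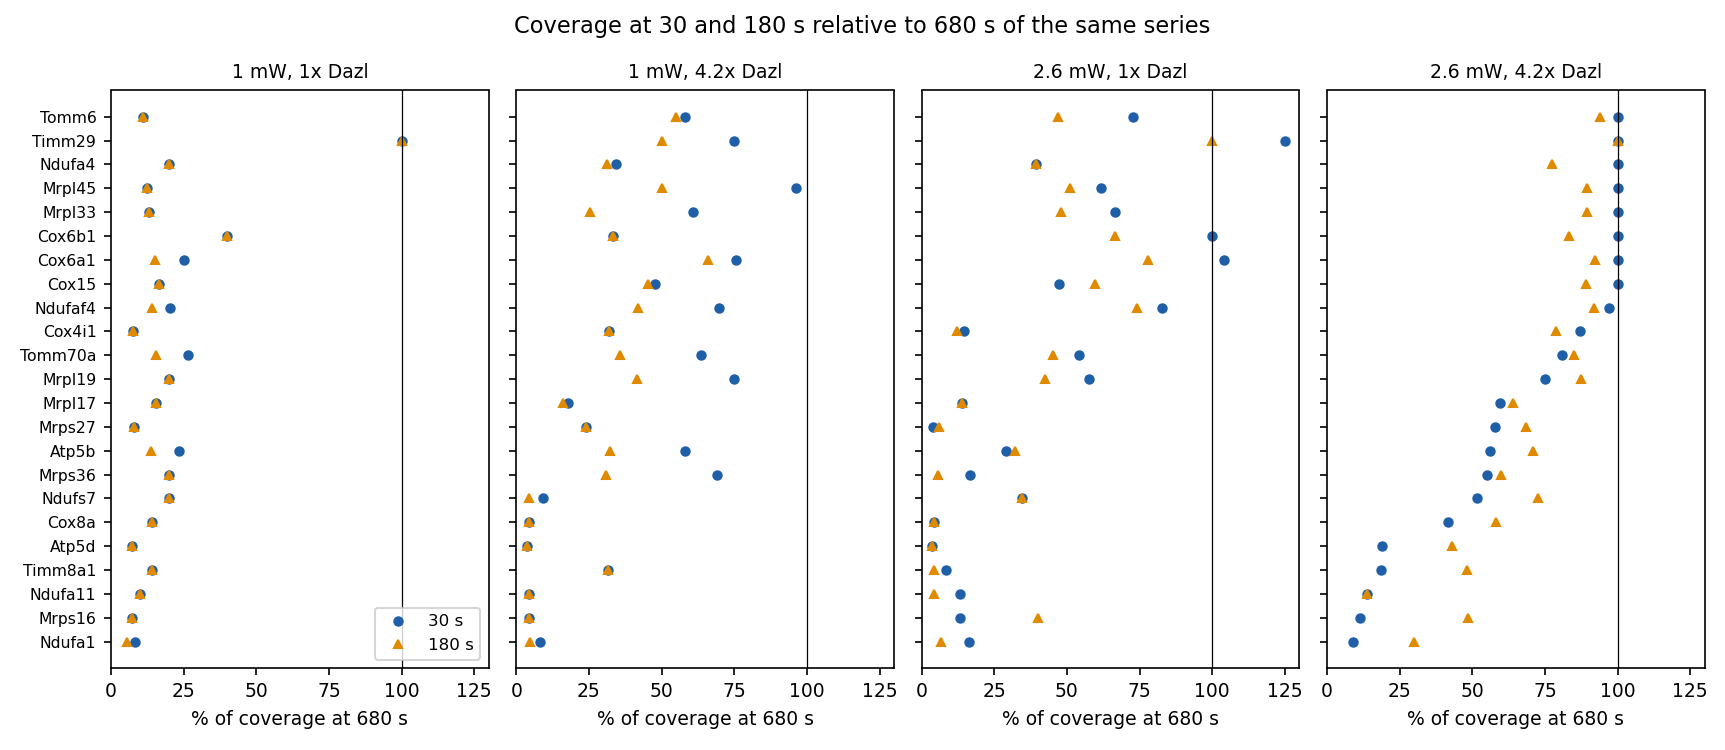
Coverage at 30 s (blue circles) and 180 s (orange triangles) as a percentage of coverage at 680 s of the same series (horizontal axes) for the 23 mitochondrial genes (rows, ordered by the 30 s share in the right panel), in 4 panels by laser power and Dazl level; the vertical line marks 100%. At 2.6 mW and 4.2x Dazl the circles run from 8.89% for Ndufa1 to 100%, where 8 genes lie.

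Regions of 1 gene differed in the same way. At 2.6 mW and 4.2x Dazl, the 3 regions of Atp5b, from 5′ to 3′, had 13, 30 and 53 at 30, 180 and 680 s (chr10:128083979-128083995), 32, 32 and 32 (chr10:128085114-128085130) and 38, 43 and 63 (chr10:128089070-128089086). The middle region was flat while the 5′ one rose. In Mrps27, a region with 6, 17 and 30 (chr13:99365219-99365235) lay beside one with 27, 22 and 27 (chr13:99365325-99365341). Mrpl17 had a pair of regions that rose, from 5 to 28 and from 6 to 28, and a pair with equal values at 30 and 680 s, with 29, 23 and 29 in one and 26, 25 and 26 in the other. Both regions of Ndufa1 were late, with 1, 2 and 38 in the 3′ one and 7, 25 and 52 in the one near the gene start whose sequence is printed above. Over the set, 28 of 48 regions (58.3%) were equal at 30 and 680 s in this series, against 45.5% of all regions, and none of all 8338 was lower at 680 s. At 1 mW and 1x, 3 of the 48 were equal.

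Position in the gene could be given for 44 regions of 21 genes that have a strand in the RefSeq promoter table. Of these, 13 (29.5%) lay within 300 nt of the gene end, against 16.8% of 6150 regions of all such protein-coding genes. Within 1000 nt the shares were 34.1% and 37.5%. The genes of the set were shorter, with a median span of 7082 nt against 31880 nt, and the part of span in the difference was not tested. Of the 13 regions near the end, 10 (76.9%; all genes 48.8%) were equal at 30 and 680 s in the strongest series, and of the 31 farther ones 16 (51.6%; all genes 45.0%). The 10 were both regions of Cox6a1, Tomm6, Mrpl33 and Cox6b1, that of Ndufa4 and 1 of Tomm70a; regions of 1 gene share their RNA.

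**Figure D4:**
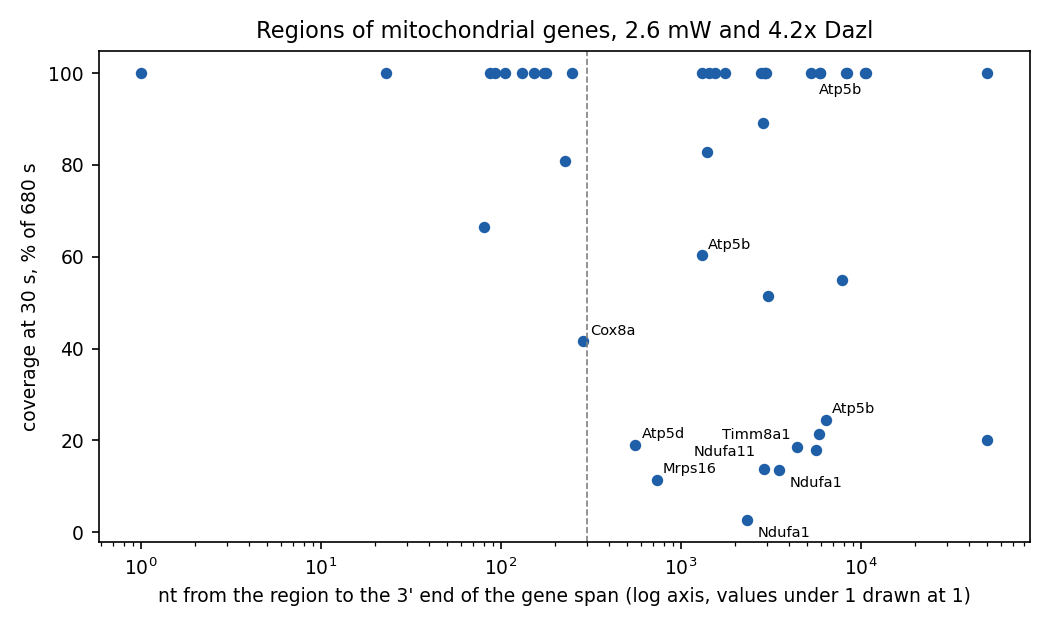
Coverage at 30 s as a percentage of that at 680 s at 2.6 mW and 4.2x Dazl (vertical axis) against the distance in nt from a region to the 3′ end of the gene span (horizontal log axis) for the 44 regions with a known strand; the dashed line marks 300 nt. Of the 13 regions left of it, 10 lie at 100%, and both Ndufa1 regions lie far to its right and low.

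Further genes outside the symbol rule were read from lists by mitochondrial function. The carriers were taken by the symbol Slc25a, wherever in the cell their products lie, so not every listed gene need be mitochondrial. Of 153 listed genes, 28 were in the table. Coverage was higher at 4.2x Dazl in 24 of the 28, at 2.6 mW in 27 and at 680 s in 22, and lower in none, where 82.4%, 93.4% and 73.0% of all genes were higher. Median log2 changes were 0.90 for Dazl, 1.14 for laser power and 1.17 for time. The tested genes were 3 of 18 of the citric acid cycle and its entry, 2 of 8 of complex II, 9 of 50 porins and carriers, 1 of 6 of cytochrome c and its maturation, 2 of 19 for mitochondrial RNA and DNA, 3 of 11 for translation, 3 of 17 chaperones and proteases, 3 of 10 for dynamics and 2 of 6 regulators of biogenesis. None of 8 further import genes had a tested region.

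With time, 7 of these 28 departed upward from the median gene on scaled values and 1 downward, where 9.52% and 1.62% of all genes did. Gfm2, a factor that recycles mitochondrial ribosomes, departed by 1.51 ± 0.28 (adjusted p = 0.00318), Hspa9, the matrix Hsp70, by 1.33, and Vdac1, a porin of the outer membrane, by 1.28. Slc25a11, the oxoglutarate carrier, and Nrf1, a transcription factor of nuclear-encoded respiratory genes, both departed by 1.18, Pdhx, of the pyruvate dehydrogenase complex, by 1.04, and Apool, of the cristae junctions, by 0.97. Sdhd, a membrane anchor of complex II, departed downward, by -0.69 ± 0.19 (adjusted p = 0.0220). Mean coverage was 6.92 for Vdac1, 8 for Hspa9, 8.08 for Slc25a11, 9.58 for Nrf1 and 9.75 for Apool. It was 22.6 for Pdhx, 45.25 for Gfm2 and 64.8 for Sdhd. The shares of all genes were not matched for coverage, and these lists were not compared with genes of equal coverage. No gene of these lists departed with Dazl or with laser power.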

How the data were processed

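Each of the 12 KIN-CLIP libraries has 1 deposited file of intervals without header or strand. The deposited values are a score that the authors call normalized coverage, whole numbers from 1 to 24 per position. FastQC and Bowtie2 with the mm10 build were used, per the submitters' processing notes; the read counting and the normalization, not given in the sources used here, leave the depth in reads unknown.

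Intervals at most 10 nt apart were joined into 8338 regions, and 7838 were assigned to 3203 RefSeq genes (GRCm38.p6) lying in 1 gene, or in 1 protein-coding gene among several. Genes were tested with limma 3.58.1 (R 4.3.3) on log2(coverage + 3), with additive terms for crosslinking time, power and Dazl, moderated by eBayes (trend, robust), with Benjamini-Hochberg adjustment over all genes, a threshold of 0.05 and 7 residual degrees of freedom. The median prior degrees of freedom were 107.09 on deposited values, so their p-values rest mostly on spread pooled over genes, and 11.46 on scaled values, where each library was divided by its median ratio to the geometric mean library. The fit on scaled values was tested for laser power only, on simulated data with independent noise, which did not model the ties between times.

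The set and all lists were chosen with earlier results of these data known. The text names each gene of the set. It gives all values for the highest of each group, the 12 highest of all, the 3 largest and 3 smallest departures from genes of equal coverage per comparison, and any gene departing on scaled values. Single regions and those 2 regions with a sequence were chosen after their values were seen. Alternatives covered pseudocount, eBayes settings, assignment, joining, a coverage filter, scaling, subsets and leaving out each library.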

Additional observations from a re-analysis of the deposited data

How the results depend on the processing

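Each condition had 1 library, so the spread comes from the additive model alone. Libraries at 2.6 mW and 4.2x Dazl were not independent, since 45.5% of all regions had equal values at 30 and 680 s. In the other series 3.79% to 9.39% of regions were equal. In both 1 mW series no region was lower at 680 s than at 180 s. The p-values treat all libraries as independent and do not take this into account. Changes of genes near the lowest value depend on the pseudocount. The cause of the shifts below was not tested.

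For Dazl level, 2640 genes and 19 of the set were higher; both counts were 0 within 2.6 mW alone and 0 on libraries scaled to the median gene, and 1 gene was lower within 1 mW alone. No gene departed from the median gene, against 67 upward and 11 downward without the 680 s libraries, and 168 upward and 111 downward within 1 mW, of which the set had 2 (Ndufa4 and Cox15) and 1 (Cox6b1). Without single libraries, 17 to 20 of the set and 2225 to 2625 of all genes were higher. In those fits 0 to 44 genes departed upward and 0 to 6 downward, where 44 and 6 came without the 680 s, 2.6 mW, 1x library.

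For laser power, 2993 genes and 22 of the set were higher, and 0 and 0 on scaled libraries. No gene departed, against 1 upward with regions counted for each overlapping gene, 71 upward and 55 downward without the 680 s libraries, and 195 and 167 within 1x Dazl, where the set had 2 upward (Tomm6 and Cox15). Without single libraries, 0 to 118 departed upward, 0 to 337 downward and 0 to 1 of the set upward. Besides the library named for Tomm6, that of 680 s, 1 mW and 4.2x gave 44 and 11.

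For time, 2339 genes and 17 of the set were higher, against 992 and 8 within 2.6 mW, 1224 and 10 with a slope on log2 time, and 305 and 4 on scaled libraries, where 52 genes were lower. Upward departures, 305 genes, were 110 with a mean coverage of at least 10, 137 within 1 mW and 195 with the slope; downward ones, 52 genes, were 102 within 2.6 mW. The set had 2 downward with a mean coverage of at least 10 (Ndufaf4 and Tomm70a) and 2 within 2.6 mW (Ndufaf4 and Cox6a1). With the 1 mW, 1x libraries of 30 and 180 s left out, a choice made after seeing the data, 603 genes departed upward and 337 downward, 8 and 5 of them in the set, and 1 gene was lower. Subsets by Dazl level for time were also chosen after seeing the data. Within 4.2x Dazl, 829 genes and 8 of the set were higher, 523 genes departed upward and 80 downward, and 1 of the set downward (Ndufaf4). Within 1x Dazl, 22 genes departed upward, 10 downward and 0 of the set upward. Without single libraries, 12 to 20 of the set and 1678 to 2627 of all genes were higher, and 0 to 1 genes were lower. In those fits 135 to 416 of all genes departed upward and 12 to 75 downward. Of the set 3 to 7 departed upward and 0 to 2 downward. The lowest counts came without 30 s, 1 mW, 4.2x (135 upward) and without 680 s, 1 mW, 1x (12 downward).

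Against 50 or 200 genes of equal coverage, or genes matched at 680 s, 2.6 mW and 4.2x, the median differences of the set lay between -0.03 and 0.06 for Dazl, 0.0034 and 0.04 for laser power, and -0.15 and 0.06 for time.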
